A study of Mus musculus with 12 samples.

Results

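This comparison is of polymorphonuclear myeloid-derived suppressor cells (PMN-MDSCs) sorted from the tumors of mice given CXD101 and of mice given the vehicle solution. Its members are the 2 libraries labelled PMN-MDSCs and CXD101 and the 2 labelled PMN-MDSCs and Vehicle, out of 12 libraries in the series. Of the 24346 gene symbols in the deposited tables, 10956 reached 1 FPKM (fragments counted, scaled to transcript length and library size) in at least 2 of these 4 libraries and were compared. Of these, 10127 reached 1 FPKM in all 4 libraries, 128 only in both vehicle libraries and 319 only in both CXD101 libraries, and a gene of the last 2 kinds differed between the groups by the way it passed. All fold changes are on the log2(FPKM + 1) scale, which understates the change of genes at a low level. A gene was called higher or lower at a limma adjusted p under 0.05 (Benjamini-Hochberg over the 10956 genes) and a fold change above 1.5, and "rose" and "fell" are used of called genes only.

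The study examined what inhibitors of histone deacetylases (HDACs) do to MDSCs, and the series holds PMN-MDSCs and monocytic M-MDSCs from tumors of mice treated with vehicle, MS-275 or CXD101. Every group was labelled wild type (WT), and every library came from cells isolated by fluorescence-activated sorting from a tumor. The methods describe female C57BL/6J mice aged 6 to 8 weeks whose liver was injected with Hepa 1-6 cells, a mouse hepatoma line. The mice used had an MDSC share above 20% in the blood on day 10. CXD101 or MS-275 at 5 mg/kg, or vehicle alone, was then injected intraperitoneally every day for 10 days, and tumors were taken on day 21. These methods describe the M-MDSC libraries, and PMN-MDSC libraries of the same inhibitors are labelled with a drug but no dose. In the study's flow cytometry, PMN-MDSCs were gated as CD11b+ with intermediate Ly-6C and positive Ly-6G. The paper gives a sort gate for sequencing for M-MDSCs only. The study calls the replicates of its MDSC RNA-seq biological in a legend to M-MDSC results, and nothing in the sources says that the 2 PMN-MDSC libraries of a group came from separate mice. If they did not, the p-values measure only the spread between libraries, which may be technical. All of the results rest on 1 tumor model, and a change in the sorted cells after days of dosing cannot be told apart from a change in which cells met the gate.

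MDSCs are immature myeloid cells that accumulate in tumors and restrain T cells, and the PMN subset shares its surface markers with neutrophils. Neutrophils fill their granules in a set order while they mature in the bone marrow: primary granules with serine proteases and myeloperoxidase first, then secondary granules with lactoferrin and cathelicidin, then tertiary granules with gelatinase. Granule genes are switched off in turn as the cell matures, so their mRNA is best known from precursors and from young neutrophils. HDAC1, HDAC2 and HDAC3 remove acetyl groups from histones as parts of corepressor complexes, and CXD101 and MS-275 both inhibit these enzymes.

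Transcripts of the gate marker CD11b, and of CD45, which the study's PMN-MDSC gate does not name, were present in all 4 libraries. Itgam, which encodes CD11b, was at 825 and 895 FPKM with vehicle and 862 and 881 with CXD101. Ptprc, which encodes CD45, was between 147 and 184 FPKM. Ly6g was not analysed here. Summed over the libraries' tables, FPKM came to 656932 and 674361 under vehicle and 836748 and 860841 under CXD101. Without S100a8 and S100a9 the sums were 590013, 582111, 596520 and 595162. The 2 replicates of a group correlated across genes with r of 0.99 under vehicle and under CXD101. The depth of these libraries is not given in the sources used here, and low FPKM values did not come out as whole reads (51.8% to 58.4% were within 0.1 of one).

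The most abundant transcripts of the cells were higher under CXD101. S100a9 (chromosome 3, 90692632 to 90695721 on GRCm38, minus strand) and S100a8 (chromosome 3, 90668978 to 90670035, plus strand) encode the 2 subunits of calprotectin, the main cytosolic protein of neutrophils. S100a9 was at 31056 and 39303 FPKM with vehicle and 136377 and 148247 with CXD101. It rose by 2.02 (standard error 0.134, limma adjusted p = 2.47e-05). S100a8 was at 35864 and 52947 FPKM with vehicle and 103851 and 117432 with CXD101, with a log2 fold change of 1.34 (standard error 0.187, limma adjusted p = 8.27e-04). Both CXD101 libraries lay above both vehicle libraries for either gene, and the 2 vehicle libraries lay further apart for S100a8 than the 2 CXD101 libraries did. Together the pair took 10.2% and 13.7% of the FPKM with vehicle and 28.7% and 30.9% with CXD101. The summed FPKM of all other genes lay between 582111 and 596520 in the 4 libraries. Under quantile normalization, which forces the top values of all libraries to be the same, S100a9 lost its call and S100a8 turned to -0.38.

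**Figure D1:**
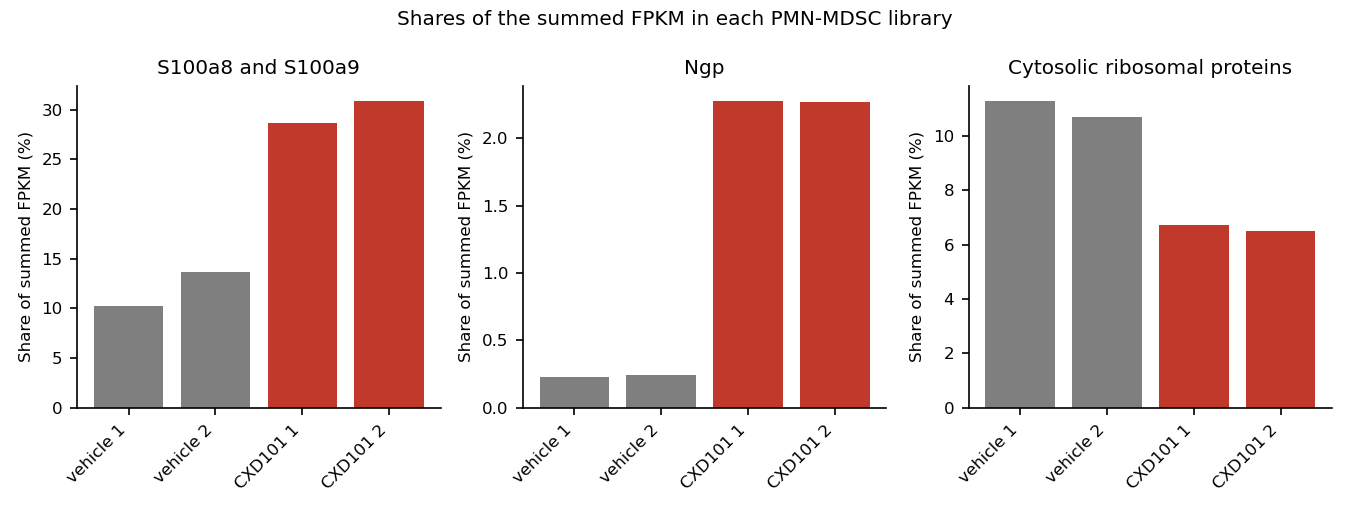
Share of the summed FPKM (%) taken in each PMN-MDSC library by S100a8 with S100a9, by Ngp, and by cytosolic ribosomal protein genes. Each bar is 1 library, grey for vehicle and red for CXD101. The first 2 shares were higher in both CXD101 libraries (28.7% and 30.9% against 10.2% and 13.7%, and 2.28% and 2.27% against 0.227% and 0.241%) and the ribosomal share was lower. The summed FPKM that the shares divide by was larger in the CXD101 libraries.

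Across all genes, 1293 of 10956 (11.8%) were higher and 1067 (9.74%) lower under CXD101 than under vehicle. In 561 and 291 of them the fold change was above 2. Over all tested genes the log2 fold changes had a median of -0.03, and the median standard error was 0.113. Groups did not overlap in any of the 2360 called genes, and they did not overlap in 75.1% of all genes tested. Calls in the upward direction were most frequent at both ends of the range of levels. Of genes with a mean under 2 FPKM, 22.7% were higher and 10.6% lower, where many genes entered through the CXD101 libraries alone, and of the 69 most abundant genes, 18.8% were higher and 5.8% lower. Between 10 and 100 FPKM the shares were 8.24% and 9.93%. Among the 10127 genes at 1 FPKM or more in all 4 libraries, 9.65% were higher and 9.27% lower. Of the 319 that passed through the CXD101 libraries only, 73.4% were higher and 0 lower. Of the 128 that passed through the vehicle libraries only, 70.3% were lower and 0 higher. Calls of these genes follow in part from how they passed.

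**Figure D2:**
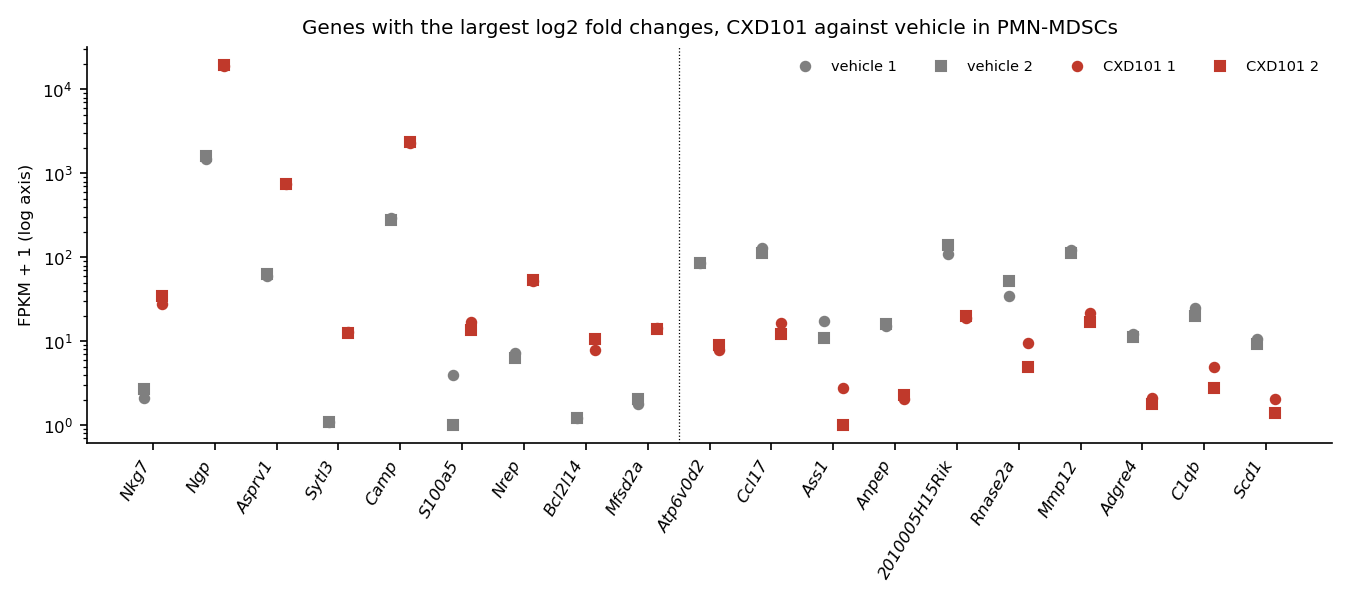
FPKM + 1 on a log axis for 9 genes with the largest log2 increases and 10 with the largest decreases, left and right of the dotted line. Each point is 1 library, grey for vehicle and red for CXD101, with circles and squares for replicates 1 and 2. The red points lie above the grey ones in all 9 genes on the left and below them in all 10 on the right.

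Secondary granule genes rose almost as a whole. Of 13 tested secondary granule genes, 12 were higher and 0 lower under CXD101, with a median log2 fold change of 1.84, against 11.8%, 9.74% and -0.03 for all genes. Ngp (neutrophilic granule protein, chromosome 9, 110419747 to 110423012, plus strand) was at 1494 and 1625 FPKM with vehicle and 19038 and 19538 with CXD101. This is a log2 fold change of 3.63 (standard error 0.0734, limma adjusted p = 1.36e-07), and its share of the FPKM went from 0.227% and 0.241% to 2.28% and 2.27%. The 2 replicates of each group lay close together and far from the other group. Camp (chromosome 9, 109847379 to 109849617, minus strand), which encodes the antimicrobial peptide precursor cathelicidin, went from 295 and 278 FPKM to 2299.9 and 2379.6 (log2 fold change 3.02, standard error 0.0652, limma adjusted p = 1.68e-07). Ltf, which encodes the iron-binding protein lactoferrin, went from 693 and 760.0 FPKM to 4945 and 4981 (log2 fold change 2.77, standard error 0.067, limma adjusted p = 3.05e-07). Lcn2 (chromosome 2, 32384633 to 32388252, minus strand), which encodes the siderophore-binding protein lipocalin 2, went from 2096 and 2322 FPKM to 7285 and 7059 and rose by 1.7 (limma adjusted p = 4.61e-06). Chil3, a chitinase-like protein, went from 1969 and 1995 FPKM to 6768 and 6757, a rise of 1.77 (limma adjusted p = 1.68e-06). Cd177, a surface protein of neutrophils, went from 268 and 301 FPKM to 1469.5 and 1499 and Itgb2l, a neutrophil integrin chain, from 45.7 and 54.4 FPKM to 235 and 251. Their log2 fold changes were 2.38 and 2.26 (limma adjusted p = 8.84e-07 and 2.98e-06). Of the 13, Hp (haptoglobin) was the one that was not called, at 442 and 421 FPKM under vehicle and 524 and 498 under CXD101. The count of 12 was the same under every alternative tried except a fold limit of 2, which left 11.

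Promoter sequences of 4 of these genes are shown because they changed together and because C/EBP factors, whose member C/EBP-epsilon is known to drive secondary granule genes, bind motifs of the form TTGCNNAA. Each line gives the 250 bases before the RefSeq start (GRCm38.p6) in the direction of transcription, with matches to this motif on either strand in capitals. The windows are chr9:110419558-110419807 for Ngp and chr9:111019042-111019291 for Ltf on the plus strand, and chr2:32387740-32387989 for Lcn2 and chr9:109849457-109849706 for Camp on the minus strand. These RefSeq starts differ from those of the GENCODE gene spans used elsewhere in the text. The Lcn2 window lies wholly inside its GENCODE span, and the windows of Ngp, Ltf and Camp overlap theirs.
Ngp: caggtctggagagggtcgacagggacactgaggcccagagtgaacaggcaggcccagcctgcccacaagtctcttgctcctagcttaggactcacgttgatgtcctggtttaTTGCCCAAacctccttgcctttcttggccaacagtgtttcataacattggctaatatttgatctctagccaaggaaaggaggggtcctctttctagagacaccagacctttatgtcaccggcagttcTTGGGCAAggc
Ltf: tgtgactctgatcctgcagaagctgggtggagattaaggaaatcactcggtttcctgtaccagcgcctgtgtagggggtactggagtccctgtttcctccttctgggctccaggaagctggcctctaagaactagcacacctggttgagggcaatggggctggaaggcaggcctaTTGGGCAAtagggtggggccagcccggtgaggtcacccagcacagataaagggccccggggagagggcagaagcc
Lcn2: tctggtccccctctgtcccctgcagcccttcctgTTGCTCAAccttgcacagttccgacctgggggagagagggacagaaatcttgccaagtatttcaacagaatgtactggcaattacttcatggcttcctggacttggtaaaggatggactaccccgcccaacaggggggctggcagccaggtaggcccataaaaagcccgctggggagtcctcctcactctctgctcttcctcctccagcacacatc
Camp: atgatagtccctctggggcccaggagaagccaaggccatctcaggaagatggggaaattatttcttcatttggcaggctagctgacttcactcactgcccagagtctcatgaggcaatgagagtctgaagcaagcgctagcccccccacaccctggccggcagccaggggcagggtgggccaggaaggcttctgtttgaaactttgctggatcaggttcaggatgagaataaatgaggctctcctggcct
Ngp held 2 matches, 138 and 11 bases before the start, Ltf held 1 at 75 bases and Lcn2 1 at 216 bases. The window of Camp held no such letters, which says nothing about the factor. Of 12 secondary granule genes with a RefSeq promoter, 4 (33.3%) held the motif in any promoter, against 9.56% of all 32851 promoters. It was in 9.1% of all genes tested with a promoter, 12% of the genes that were higher and 9.93% of those that were lower. A match is a description and not a site of binding.

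Genes of the other granule classes moved less uniformly, where 11.8% of all genes were higher and 9.74% lower. Of 10 tested primary granule genes, 3 were higher and 1 lower under CXD101, with a median log2 fold change of 0.39. Elane (neutrophil elastase) went from 74.7 and 35.6 FPKM to 141 and 114 (log2 fold change 1.28, standard error 0.287, limma adjusted p = 0.00777), and Prss57, a related serine protease, from 1.44 and 1.81 FPKM to 6.74 and 5.3 (1.41). Ms4a3, a gene of granulocyte-monocyte precursors, went from 39.4 and 26.5 FPKM to 74.2 and 76 (1.19). The 2 vehicle libraries lay far apart for Elane, and without CXD101 replicate 1 its value was 1.13 and its call was lost. Mpo (myeloperoxidase) was not called, at 0.61 (limma adjusted p = 0.131), and neither was Prtn3 (proteinase 3) at 0.1. Ctsc, the protease that activates the granule serine proteases, fell from 375 and 365 FPKM to 242 and 242 (-0.61). Of 9 tested tertiary granule genes, 4 were higher and 2 lower under CXD101, with a median log2 fold change of 0.05. The metalloproteases Mmp25 and Mmp8 rose by 1.37 and 1.3, and Mmp8 went from 609 and 733 FPKM to 1602 and 1701. Mmp9 (gelatinase B), the namesake of this class, was at 978 and 1144 FPKM with vehicle and 695 and 724 with CXD101. Its log2 fold change of -0.577 lay just short of the fold limit (0.585), so it was not called. Cfp (properdin) and the metal transporter Slc11a1 fell by 0.79 and 1.16. Retnlg, at 0.6, lay just over the fold limit and lost its call under 5 alternatives (0.34 without vehicle replicate 1). Of the primary granule genes, the number higher was 5 without vehicle replicate 1.

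Genes for granule release and for cytotoxic granules were among those that changed by the largest factors. Of 14 tested granule exocytosis and extracellular trap genes, 6 were higher and 0 lower under CXD101, against 11.8% and 9.74% of all genes, with a median log2 fold change of 0.42. Nkg7, a membrane protein of cytotoxic granules best known from natural killer and T cells (chromosome 7, 43437073 to 43438249, plus strand), was at 1.1 and 1.7 FPKM with vehicle and 26.5 and 33.6 with CXD101. Its log2 fold change of 3.69 (standard error 0.15, limma adjusted p = 2.99e-06) was the largest of any gene named by the rule. Sytl3, a Rab27-binding protein of vesicle transport, went from 0.107 and 0.11 FPKM to 11.9 and 11.5 (log2 fold change 3.52, standard error 0.12). Sytl3 was tested through the CXD101 libraries only, so its call, counted among the 6, follows in part from how it passed. Sytl3 overlaps Ezr on the other strand, and whether strand was used in counting is not given in the sources used here. Sytl1, of the same family, went from 2.81 and 3.49 FPKM to 15.8 and 17.5 and the syntaxin Stx11 from 28.9 and 30.6 FPKM to 90.0 and 96.4, rises of 2.09 and 1.62. Rab27a, the small GTPase that docks granules, rose by 1.17 and Padi4, the deiminase that citrullinates histones in extracellular traps, by 0.96. Beside the rise of Nkg7, 12 of 13 markers of T and NK cells were not tested because of their low level, and Cd3d was the exception (from 0.199 and 0.717 FPKM to 2.17 and 1.82). The whole list summed to 1.02 and 1.65 FPKM with vehicle and 4.5 and 3.52 with CXD101, and Ncr1, Klrb1c and Gzma were at 0 in all 4. Prf1 (perforin), another gene of cytotoxic granules, was at 0 and 0 FPKM with vehicle and 0.819 and 0.554 with CXD101. The part of these markers in the result was not tested.

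The other genes with the largest increases have less clear ties to neutrophil granules. Asprv1, a retroviral-like aspartic protease known from skin and neutrophils (chromosome 6, 86628164 to 86629710, plus strand), was at 59.7 and 63 FPKM with vehicle and 738 and 742 with CXD101, a rise of 3.57 (standard error 0.0658, limma adjusted p = 1.36e-07). Bcl2l14, a member of the BCL2 family, went from 0.223 and 0.229 FPKM to 6.82 and 9.54 (2.89). It was under 1 FPKM in both vehicle libraries and above 6 in both CXD101 libraries, so it was tested through the CXD101 libraries only. Mfsd2a, a transporter of lysophospholipids, went from 0.808 and 1.07 FPKM to 13.4 and 13.1 (2.88). Nrep, a neuronal regeneration-related protein, went from 6.35 and 5.37 FPKM to 51.5 and 53 (2.96). S100a5, a calcium-binding protein, was at 2.93 and 0 FPKM with vehicle and 16.2 and 12.8 with CXD101, with a listed 0 in 1 vehicle library, and its standard error of 0.518 was the widest among the genes described here with the largest increases. Of 10 tested S100 genes, 5 were higher and 0 lower under CXD101, against 11.8% and 9.74% of all genes, with a median log2 fold change of 0.69. S100a6 and S100a7a rose by 0.93 and 1.37, while S100a4, S100a10 and S100a11 were not called, at -0.32, -0.54 and 0.44. Of the S100 genes, the number higher was 3 with quantile normalization.

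Genes of the stefin family, inhibitors of cysteine proteases that lie in a cluster on chromosome 16, fell while Asprv1 rose. Of 13 tested stefin and cystatin genes, 1 was higher and 8 lower under CXD101, against 11.8% and 9.74% of all genes, with a median log2 fold change of -1.12. The rise was that of Asprv1, which had been placed in this list. Gm5483 was at 1011 and 1379.7 FPKM with vehicle and 264 and 269 with CXD101 (log2 fold change -2.14, standard error 0.131, limma adjusted p = 1.70e-05). 2010005H15Rik was at 109 and 139 FPKM with vehicle and 17.9 and 18.9 with CXD101 (log2 fold change -2.67, standard error 0.12, limma adjusted p = 4.54e-06), Stfa2l1 at 529 and 891 FPKM with vehicle and 209.6 and 217 with CXD101 (-1.68), and Stfa1 at 84.3 and 161 FPKM with vehicle and 17.3 and 40.4 with CXD101 (-2.1). Vehicle replicate 2 lay above vehicle replicate 1 for all of these 4 genes, and still the groups did not overlap. The members are near-identical copies, so how reads were divided among them is uncertain. Cstb, another cysteine protease inhibitor, fell by 1.05. Of the stefin and cystatin genes, the number higher was 2 without CXD101 replicate 1.

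Most of the macrophage markers tested fell. Of 13 tested monocyte and macrophage markers, 0 were higher and 8 lower under CXD101, with a median log2 fold change of -1.07, against 9.74% lower among all genes. Among the 8, C1qa (from 3.96 and 1.84 FPKM to 0.928 and 0.437) and Cx3cr1 were tested through the vehicle libraries only. Calls of these genes follow in part from how they passed. C1qb, a chain of complement C1q that macrophages secrete (chromosome 4, 136880129 to 136886187, minus strand), was at 23.7 and 18.8 FPKM with vehicle and 3.93 and 1.79 with CXD101 (log2 fold change -2.58, standard error 0.263, limma adjusted p = 1.96e-04). C1qc went from 10.4 and 9.77 FPKM to 1.64 and 1.96, the efferocytosis receptor Mertk from 9.29 and 9.41 FPKM to 1.64 and 1.11, and the mannose receptor Mrc1 from 50.6 and 48 FPKM to 20.1 and 23.7. Their log2 fold changes were -1.99, -2.13 and -1.14 (limma adjusted p = 6.02e-05, 3.63e-05 and 1.32e-04). Csf1r, the receptor for macrophage colony-stimulating factor, went from 159.9 and 145 FPKM to 72.4 and 71.4 (-1.07). Adgre1, which encodes F4/80, was not called, at 88.4 and 86.6 FPKM with vehicle and 65.4 and 70.1 with CXD101, and neither were Fcgr1 (-0.07) and Apoe (0.5). The Kupffer cell markers Vsig4 and Clec4f were at 0 or at most 0.104 FPKM. The 15 markers summed to 433 and 402 FPKM with vehicle and 238 and 250.1 with CXD101. Other genes of this kind among the largest decreases were Mmp12 (macrophage elastase), which went from 123 and 111 FPKM to 20.8 and 15.9 (-2.62), Adgre4, an F4/80 relative, from 11.2 and 10.3 FPKM to 1.14 and 0.78 (-2.59), Anpep (aminopeptidase N, CD13), from 14.4 and 15.1 FPKM to 1.05 and 1.27 (-2.87), and Atp6v0d2. Beside these decreases, 9 of 11 neutrophil markers rose, some of them granule genes named above, and their summed level went from 71839.5 and 97849.6 FPKM to 271296 and 297561. In sorted populations such as these, fewer cells of a type and less RNA per cell cannot be told apart, and the part of these marker changes in the results for genes that macrophages also express was not tested. Of the monocyte and macrophage markers, the number higher was 1 without CXD101 replicate 1 and without vehicle replicate 2, and the number lower was 5 at 5 FPKM or more. Of the neutrophil markers, the number lower was 0. It was 1 after rescaling without S100a8 and S100a9, without vehicle replicate 1 and without CXD101 replicate 2.

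Of the MHC class II genes, which present peptides to CD4+ T cells, more fell than rose. Of 11 tested MHC class II genes, 2 were higher and 6 lower under CXD101, with a median log2 fold change of -0.82, against 11.8% and 9.74% of all genes. The uncalled members were H2-DMa, H2-DMb1 and H2-DMb2, none of them above 0. The classical chains H2-Eb1, H2-Aa and H2-Ab1 fell by 1.4, 1.15 and 0.82, and H2-Aa went from 80.6 and 59.7 FPKM to 29.3 and 32. The invariant chain Cd74 was at 440.0 and 353 FPKM with vehicle and 179 and 165 with CXD101 (log2 fold change -1.19, standard error 0.101, limma adjusted p = 8.16e-05), and Ctss, the protease that trims it, at 403 and 398 FPKM with vehicle and 189 and 187 with CXD101 (log2 fold change -1.09, standard error 0.0548, limma adjusted p = 7.29e-06). Ciita, the transactivator of the class, fell by 0.97. In contrast, H2-Oa, a chain of the inhibitory H2-O molecule, was at 3.45 and 4.37 FPKM with vehicle and 31.1 and 33 with CXD101 (log2 fold change 2.76, standard error 0.107, limma adjusted p = 2.77e-06). Its partner H2-Ob was called at 0.94, but it was low and was tested through the CXD101 libraries only, so its call follows in part from how it passed. H2-Oa overlaps BC051537 on the other strand. Of 23 tested MHC class I genes, 0 were higher and 2 lower under CXD101, with a median log2 fold change of 0.04, and the 2 that fell were the immunoproteasome genes Psmb10 (-1.04) and Psme2 (-0.6). Psme2, just over the fold limit, was also not called under median-of-ratios scaling, under quantile normalization, without vehicle replicate 1 (-0.56) and without CXD101 replicate 2 (-0.57). Of the dendritic cell markers, Ccr7 and Cd209a fell (from 9.77 and 8.28 FPKM to 3.05 and 2.54, and from 4.3 and 2.07 FPKM to 0.091 and 0.1), and Zbtb46, Xcr1, Clec9a and Siglech were too low to be tested. Cd209a was tested through the vehicle libraries only, so its call follows in part from how it passed. At 5 FPKM or more, the number of dendritic cell markers lower was 1. Of the MHC class II genes, the number higher was 1 without CXD101 replicate 1 and without CXD101 replicate 2. Of the MHC class I genes, the number higher was 1 without CXD101 replicate 2 and 4 without vehicle replicate 1, and the number lower was 1 with median-of-ratios scaling, with quantile normalization, without CXD101 replicate 2 and without vehicle replicate 1.

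**Figure D3:**
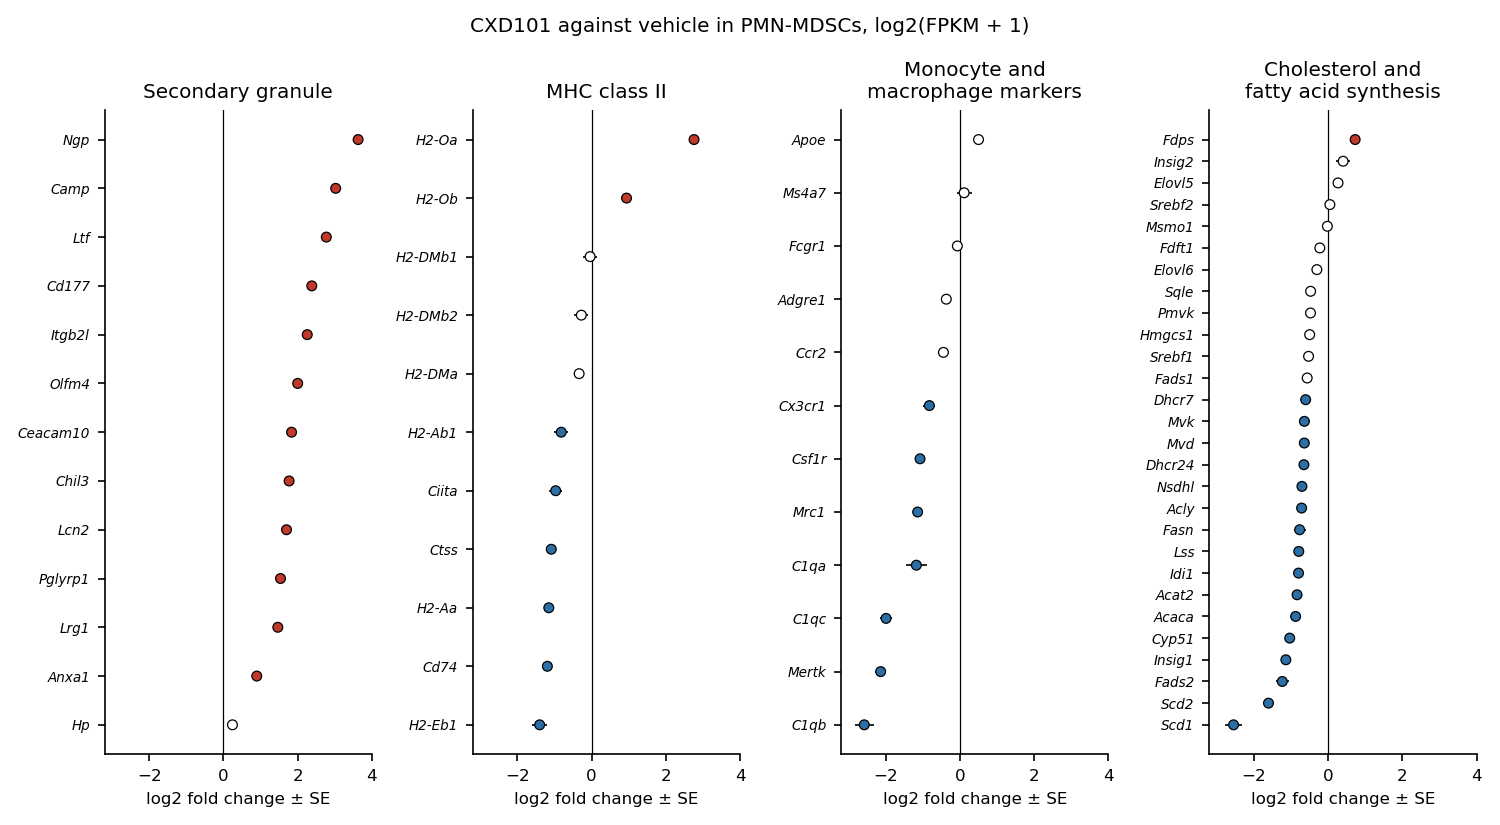
Log2 fold change ± standard error, CXD101 against vehicle in PMN-MDSCs, for tested members of 4 gene lists. Red points were called higher, blue points lower, and white points were not called. Every secondary granule gene plotted lay to the right of 0, while most macrophage markers and lipid synthesis genes lay to the left, with H2-Oa and H2-Ob apart from the other MHC class II genes.

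Chemokine ligands mostly fell and their receptors moved both ways. Of 17 tested chemokine ligands, 2 were higher and 9 lower under CXD101, against 11.8% and 9.74% of all genes, with a median log2 fold change of -0.91. Ccl17 and Ccl22, ligands of CCR4, were at 128 and 111 FPKM with vehicle and 15.7 and 11.1 with CXD101, and at 58.9 and 55 FPKM with vehicle and 13.9 and 11.5 with CXD101. Their log2 fold changes were -3.08 and -2.08 (limma adjusted p = 5.87e-06 and 7.07e-06). Ccl2, the main ligand of CCR2, went from 92.7 and 81.9 FPKM to 14.3 and 16.6 (log2 fold change -2.43, standard error 0.26, limma adjusted p = 2.42e-04), and Ccl7, which also binds CCR2, from 10.2 and 8.9 FPKM to 3.13 and 2.15 (-1.55). Cxcl3, a neutrophil attractant that binds CXCR2, was one of 2 ligands that rose (from 36.9 and 40.1 FPKM to 159 and 152, log2 fold change 1.99, standard error 0.0797, limma adjusted p = 2.98e-06), and Ppbp, a platelet chemokine, was the other (from 3.71 and 0.263 FPKM to 12.1 and 13.3). Platelet genes Gp9 (from 0.185 and 0 FPKM to 1.15 and 1.9) and Gp1bb (from 0.437 and 0.456 FPKM to 2.8 and 2.6) were called at 1.2 and 1.36. Both were tested through the CXD101 libraries only, and Pf4 was not called at 0.00. Of 5 tested megakaryocyte and platelet markers, 3 were higher, against 11.8% of all genes. The number was 1 at 5 FPKM or more, without CXD101 replicate 1 and without CXD101 replicate 2. Of 15 tested chemoattractant receptors, 4 were higher and 5 lower under CXD101, with a median log2 fold change of -0.14. Cxcr2 went from 80.8 and 109 FPKM to 245 and 261 (1.42), the leukotriene B4 receptor Ltb4r1 from 64.5 and 60.2 FPKM to 185 and 169.6 (1.49), and Cxcr4, which holds cells in the bone marrow, from 66.3 and 73.8 FPKM to 133 and 141 (0.96). Ccr7, Ccrl2, C3ar1 and Cx3cr1 fell, by 1.4, 1.05, 0.85 and 0.82. Cx3cr1, at most 1.4 FPKM with vehicle and 0.361 with CXD101, was tested through the vehicle libraries only. Ccr2, the receptor on which the study centred in M-MDSCs, was at 40.7 and 35.7 FPKM with vehicle and 27.5 and 28 with CXD101, with a log2 fold change of -0.44 that passed the adjusted p of limma (0.00364) but not the fold limit. Of the chemoattractant receptors, the number lower was 3 without vehicle replicate 1.

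Genes for immunosuppressive effectors did not move together. Of 19 tested immunosuppressive effectors, 2 were higher and 2 lower under CXD101, near the shares of all genes (11.8% and 9.74%), with a median log2 fold change of 0.03. Nt5e, which encodes CD73, the ectoenzyme that makes adenosine, was at 18.4 and 25.5 FPKM with vehicle and 101 and 115 with CXD101 (log2 fold change 2.26, standard error 0.139, limma adjusted p = 1.79e-05). Vegfa, the angiogenic factor, went from 25.5 and 25 FPKM to 47.9 and 47.9 (0.9). Spp1 (osteopontin) fell from 206 and 212 FPKM to 71.7 and 87 (-1.39) and Cd274 (PD-L1) from 84.7 and 88.9 FPKM to 55.9 and 53.6 (-0.66). Arg1 (arginase 1) was not called, at 33 and 37.4 FPKM with vehicle and 19.4 and 31.4 with CXD101 (-0.49), nor were Arg2 (-0.08), Tgfb1 (-0.15), Stat3 (0.15) and Entpd1 (0.03). Nos2, Ptgs2, Il10, Ido1 and Slc27a2 were too low to be tested. Ass1, which makes argininosuccinate and so links citrulline to arginine, was among the 10 largest decreases (from 16.3 and 9.88 FPKM to 1.78 and 0.00033, log2 fold change -3.04, standard error 0.435, limma adjusted p = 9.37e-04), with CXD101 replicate 2 near 0. Of 7 tested NADPH oxidase subunits, 1 was higher and 0 lower under CXD101, with a median log2 fold change of 0.37, and Cybb, the catalytic subunit that makes superoxide, went from 199.7 and 209 FPKM to 442 and 449 (log2 fold change 1.12, standard error 0.0569, limma adjusted p = 7.54e-06).

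Transcription factors moved in both directions. Of 57 tested myeloid transcription factors, 11 were higher and 10 lower under CXD101, against 11.8% and 9.74% of all genes, with a median log2 fold change of -0.01. Cebpe, the C/EBP member of late granulopoiesis, was at 45.5 and 43.1 FPKM with vehicle and 168 and 190.1 with CXD101 (log2 fold change 1.99, standard error 0.0764, limma adjusted p = 2.70e-06). Gfi1, a repressor needed for neutrophils, went from 3.63 and 3.24 FPKM to 16.5 and 14.1 (log2 fold change 1.88, standard error 0.115, limma adjusted p = 1.73e-05), and Erg and Ets1, both ETS factors, from 2.03 and 3.06 FPKM to 14.9 and 18.1 and from 5.42 and 6.42 FPKM to 26.1 and 25 (2.31 and 1.94). Myb and Hoxa9, factors of progenitors, rose by 1.35 and 0.93, and Cebpa by 0.82. Maf, a factor of macrophages, went from 7.32 and 8.1 FPKM to 1.46 and 1.64 (log2 fold change -1.77, standard error 0.158, limma adjusted p = 1.05e-04). Klf4, Irf5, Zeb2 and Egr2 fell by 1.07, 1.05, 1.01 and 1.26, and the NF-kB subunits Nfkb2 and Relb by 1.03 and 0.94. Spi1 (PU.1), Cebpb, Irf8 and Runx1 were not called, at 0.07, -0.36, -0.41 and 0.07.

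Genes of stem and progenitor cells rose in these sorted tumor cells. Of 13 tested stem and progenitor genes, 8 were higher and 1 lower under CXD101, against 11.8% and 9.74% of all genes, with a median log2 fold change of 0.98. Ly6a (Sca-1) went from 11.4 and 5.67 FPKM to 42.4 and 52.7 (log2 fold change 2.41, standard error 0.247, limma adjusted p = 2.02e-04), Adgrg1 from 0.839 and 0.787 FPKM to 7.97 and 7.5 (2.27), Prom1 (CD133) from 8.41 and 9.67 FPKM to 32.4 and 35.8 (1.81), and Kit, the stem cell factor receptor, from 16.2 and 16.6 FPKM to 47.7 and 48.9 (1.5). Adgrg1, under 1 FPKM in both vehicle libraries, was tested through the CXD101 libraries only. Procr fell, by 0.86, and Cd34 (0.45), Lmo2 (-0.01) and Gata2 (-0.13) were not called. Another 14 of the 27 genes in the list were too low to be tested. The genes for the Ly-6C marker also rose: Ly6c2 was at 511 and 455 FPKM with vehicle and 1628 and 1418 with CXD101 (log2 fold change 1.65, standard error 0.0955, limma adjusted p = 1.35e-05) and Ly6c1 at 0.396 and 1.93 FPKM with vehicle and 6.78 and 6.29 with CXD101 (log2 fold change 1.9, standard error 0.3, limma adjusted p = 0.00152). Ly6 genes are close copies of each other, so the division of reads among them is uncertain. The study's flow cytometry gate for PMN-MDSCs used Ly-6C protein, and the paper gives a sort gate for sequencing for M-MDSCs only.

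Interferon-stimulated genes shifted upward. Of 39 tested interferon-stimulated genes, 12 were higher and 1 lower under CXD101, against 11.8% and 9.74% of all genes. Their median log2 fold change was 0.41, and 31 of the 39 had a value above 0. Zbp1, a sensor of Z-form nucleic acid, was at 21.2 and 22.5 FPKM with vehicle and 64.5 and 65 with CXD101 (log2 fold change 1.52, standard error 0.0689, limma adjusted p = 4.61e-06). Cmpk2 and Rsad2, neighbouring antiviral genes, went from 2.33 and 3.33 FPKM to 11.9 and 11.7, and from 0.942 and 2 FPKM to 5.24 and 6.02 (1.75 and 1.46). Oas3, an oligoadenylate synthetase, went from 8.09 and 8.24 FPKM to 24.2 and 21.2 (1.37), and Irf7 rose by 1.28. Mx1 fell, from 2.92 and 2.71 FPKM to 0.795 and 1.06 (-0.99), and Isg15, Ifit1 and Bst2 were not called, at 0.41, -0.07 and -0.46. Of 17 tested interleukin-1 and inflammasome genes, 5 were higher and 2 lower under CXD101, with a median log2 fold change of 0.04. Il18, its receptor chains Il18r1 and Il18rap, and its binding protein Il18bp rose, by 1.23, 1.45, 1.08 and 1.03, and Il1a fell by 0.96. Of 26 tested pattern recognition receptors, 3 were higher and 3 lower under CXD101, with a median log2 fold change of -0.05. The 3 that fell were the C-type lectins Clec7a (dectin-1), Clec4n (dectin-2) and Clec4d, and Clec7a went from 272 and 305 FPKM to 62.9 and 68.9 (log2 fold change -2.11, standard error 0.0813, limma adjusted p = 2.70e-06). Of the interferon-stimulated genes, the number lower was 2 without CXD101 replicate 1.

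Genes for making cholesterol and fatty acids fell. Of 30 tested cholesterol and fatty acid synthesis genes, 1 was higher and 16 lower under CXD101, with a median log2 fold change of -0.62, against 9.74% lower among all genes. The stearoyl-CoA desaturases Scd1 and Scd2, which make monounsaturated fatty acids, went from 9.73 and 8.2 FPKM to 1.08 and 0.387, and from 116 and 95.9 FPKM to 38.8 and 29.7 (-2.55 and -1.61, limma adjusted p = 1.15e-04 and 8.11e-05). Fads2, another desaturase, fell by 1.23, Cyp51, of sterol synthesis, by 1.03, and Insig1, a sterol-regulated brake on the pathway, by 1.14. Srebf2, a transcription factor of the sterol pathway, was not called (0.05). Fdps was the 1 gene that rose (from 181 and 151 FPKM to 294 and 257, log2 fold change 0.73, standard error 0.111, limma adjusted p = 0.0013). Without vehicle replicate 1 the count of lower genes was 11, and without vehicle replicate 2 it was 19. Of 25 tested lipid uptake, storage and efflux genes, 5 were higher and 5 lower under CXD101, with a median log2 fold change of 0.13. Dgat1 and Dgat2, which make triglycerides, went from 68.9 and 66.3 FPKM to 189 and 186, and from 28.1 and 27.6 FPKM to 114 and 114 (1.46 and 1.99), while Lpl (lipoprotein lipase) and the scavenger receptor Cd36 went from 286 and 281 FPKM to 90.5 and 83.8, and from 5.52 and 6.18 FPKM to 1.2 and 1.52 (-1.69 and -1.54). Of the lipid uptake, storage and efflux genes, the number lower was 3 without vehicle replicate 1.

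Lysosomal genes fell or were not called. Of 40 tested lysosomal proteases and membrane genes, 0 were higher and 11 lower under CXD101, against 11.8% and 9.74% of all genes, with a median log2 fold change of -0.27. Atp6v0d2, a proton pump subunit of macrophages and osteoclasts (chromosome 4, 19876841 to 19922605, minus strand), was at 85.1 and 84.1 FPKM with vehicle and 6.84 and 8.03 with CXD101. With -3.35 (standard error 0.137, limma adjusted p = 3.08e-06), it was the largest decrease of any gene named by the rule. The cathepsin Ctsk, best known from osteoclasts, went from 7.66 and 8.12 FPKM to 0.76 and 1.11 (-2.2). Ctsd (cathepsin D), an abundant protease, was at 4452 and 4053 FPKM with vehicle and 2495 and 2500.3 with CXD101 (log2 fold change -0.77, standard error 0.0719, limma adjusted p = 1.36e-04). The transcription factor Mitf fell by 1.11, whereas Tfeb, another of its family, was not called (-0.34). Of the other proton pump subunits, Atp6v1c1 fell by 0.64, and Atp6v1a (-0.1) and Atp6v0d1 (0.03) were not called. Of the lysosomal proteases and membrane genes, the number higher was 1 without vehicle replicate 2.

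Among chromatin genes, the histones had the most calls. Of 16 tested HDAC and sirtuin genes, 2 were higher and 0 lower under CXD101, with a median log2 fold change of 0.2, against 11.8% and 9.74% of all genes. The HDACs that CXD101 inhibits did not pass the fold limit: Hdac1 was at 56.4 and 58 FPKM with vehicle and 65 and 68.7 with CXD101 (0.22, limma adjusted p = 0.0265), Hdac2 at 23.7 and 25.7 FPKM with vehicle and 20.4 and 21.6 with CXD101 (-0.22, limma adjusted p = 0.0695), and Hdac3 at 26.1 and 25.2 FPKM with vehicle and 30.6 and 30.5 with CXD101 (0.25, limma adjusted p = 0.0335). Hdac7 and Sirt4 rose by 1.08 and 1.11. Of 36 tested corepressors, acetyltransferases and BET readers, 1 was higher and 2 lower under CXD101, with a median log2 fold change of -0.02, the rise being that of Chd3 (from 1.33 and 0.898 FPKM to 8.01 and 7.38, log2 fold change 2.04, standard error 0.147, limma adjusted p = 3.63e-05), a remodeller of the NuRD complex, and the falls those of Mbd3 (-0.98) and Kat2a (-0.88). Of 21 tested histone and linker histone genes, 10 were higher and 0 lower under CXD101, with a median log2 fold change of 0.86. H1f0, the replication-independent linker histone, was at 26.6 and 26.3 FPKM with vehicle and 113 and 126 with CXD101 (log2 fold change 2.13, standard error 0.075, limma adjusted p = 1.68e-06), and Hist1h1c went from 69.2 and 55.5 FPKM to 196 and 259 (1.84). Transcripts of clustered histone genes mostly lack a poly(A) tail and are many near-identical copies, so poly(A) libraries catch only some of them. Hist1h1b, at most 1.97 FPKM, lost its call under 6 alternatives. Of the corepressors, acetyltransferases and BET readers, the number higher was 2 without CXD101 replicate 1. Of the histone and linker histone genes, the number higher was 5 at 5 FPKM or more.

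Genes of the respiratory chain and the ribosome had medians below 0. Their shares of lower calls were near that of all genes (9.74%) or little above it, and 0 were higher, against 11.8% of all genes. Of 75 tested respiratory chain subunits, 0 were higher and 10 lower under CXD101, with a median log2 fold change of -0.33, and 3 of the 75 had a value above 0. Atp5g1, of the ATP synthase, went from 184 and 150.3 FPKM to 87.1 and 74.4 (-1.04) and Ndufs8, of complex I, from 112 and 109 FPKM to 56.3 and 59 (-0.92). Of 82 tested cytosolic ribosomal proteins, 0 were higher and 8 lower under CXD101, with a median log2 fold change of -0.38, and together they took 11.3% and 10.7% of the FPKM under vehicle and 6.72% and 6.49% under CXD101. Part of this drop in share comes from the larger FPKM total under CXD101, to which S100a8 and S100a9 added. The ribosomal genes themselves summed to 74133 and 72225 FPKM with vehicle and 56248 and 55857 with CXD101. Rplp1 and Rps2 went from 3458 and 2997 FPKM to 2076 and 2045, and from 1529.8 and 1249 FPKM to 809.7 and 728 (-0.64 and -0.85). Rplp1 lost its call without vehicle replicate 1 (-0.54). Ribosomal proteins have many processed pseudogenes, and some symbols jumped between replicates, such as Rps27rt, with 1374 and 12.1 FPKM in the 2 vehicle libraries. Ppia (cyclophilin A) was at 2001 and 1957 FPKM with vehicle and 1127 and 1076 with CXD101 (-0.84). Of 13 tested serine and one-carbon genes, 0 were higher and 6 lower under CXD101, against 11.8% and 9.74% of all genes, with a median log2 fold change of -0.29. The cystine transporter Slc7a11 fell by 1.37 and Mthfd1l, of the mitochondrial folate pathway, by 0.98. Of 35 tested glycolysis and hypoxia-response genes, 6 were higher and 6 lower under CXD101, with a median log2 fold change of -0.24. The glucose transporter Slc2a3 was at 26.6 and 28.7 FPKM with vehicle and 103 and 102 with CXD101 (log2 fold change 1.86, standard error 0.0668, limma adjusted p = 1.73e-06), while Tpi1 and Mif fell by 0.76 and 1.18. Gapdh was at 2530.0 and 2335 FPKM with vehicle and 2069 and 2008 with CXD101 and was not called (-0.25). Of 14 tested iron handling genes, 0 were higher and 2 lower under CXD101, with a median log2 fold change of -0.29, these being Steap3 (-1.21) and Aco1 (-0.82). Of the iron handling genes, the number lower was 4 without vehicle replicate 2.

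Growth, survival and stress genes moved in both directions. Of 40 tested cell cycle genes, 3 were higher and 2 lower under CXD101, with a median log2 fold change of -0.19, against 11.8% and 9.74% of all genes. Cdk2, E2f2 and Ccnd3 rose by 0.79, 0.71 and 0.66, and Ccnd1 and Cdc20 fell by 0.59 and 0.59. Ccnd1 and Cdc20, just over the fold limit, lost their calls with median-of-ratios scaling, with quantile normalization and without vehicle replicate 1 (-0.5 and -0.54), Ccnd1 also without CXD101 replicate 1 (-0.56) and Cdc20 without CXD101 replicate 2 (-0.55). Ccnd3 lost its call without vehicle replicate 2 (0.56). Of 4 tested CDK inhibitors, 2 were higher and 1 lower under CXD101, with a median log2 fold change of 0.16: Cdkn2d (0.75) and Cdkn1b, which encodes p27 (0.64), rose, and Cdkn1a, which encodes p21, fell, from 217 and 187 FPKM to 124 and 112 (log2 fold change -0.77, standard error 0.0926, limma adjusted p = 4.05e-04). Cdkn1b lost its call without vehicle replicate 1 (0.54). Of 15 tested BCL2 family genes, 2 were higher and 2 lower under CXD101, with a median log2 fold change of -0.36. Bmf, a BH3-only killer, rose by 1.26 and Bax, a pore former, fell by 0.77. Of 25 tested unfolded protein and integrated stress response genes, 2 were higher and 2 lower under CXD101, with a median log2 fold change of -0.19, among them Chac1 (1.21) and Trib3 (1.08) upward and Atf3 (-1.02) downward. Of the cell cycle genes, the number lower was 0 with median-of-ratios scaling, with quantile normalization and without vehicle replicate 1 and 1 without CXD101 replicate 2. Of the CDK inhibitors, the number higher was 1 without vehicle replicate 1. Of the BCL2 family genes, the number higher was 1 without CXD101 replicate 2 and without vehicle replicate 2, and the number lower was 4 without vehicle replicate 2. Of the unfolded protein and integrated stress response genes, the number lower was 1 without CXD101 replicate 2.

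Adhesion genes had calls in both directions and Fc and inhibitory receptors upward only, where 11.8% of all genes were higher and 9.74% lower. Of 19 tested leukocyte integrins, selectins and adhesion genes, 7 were higher and 2 lower under CXD101, with a median log2 fold change of 0.1. F11r and Pecam1, junction proteins used in transmigration, went from 2.57 and 1.67 FPKM to 14 and 11.3, and from 16 and 16.5 FPKM to 51 and 51 (2.13 and 1.59). Itgax, which encodes CD11c, went from 46.2 and 42 FPKM to 9.25 and 8.52 (log2 fold change -2.19, standard error 0.0938, limma adjusted p = 3.74e-06). Of 21 tested Fc and inhibitory receptors, 5 were higher and 0 lower under CXD101, with a median log2 fold change of -0.07, led by Fcgrt, the neonatal Fc receptor, at 17.6 and 13.1 FPKM with vehicle and 54.8 and 52.7 with CXD101 (log2 fold change 1.76, standard error 0.126, limma adjusted p = 3.63e-05), and Fcgr4 (1.13). Of 22 tested cytokine and growth factor receptors, 2 were higher and 2 lower under CXD101, near the shares of all genes, with a median log2 fold change of -0.09. Il3ra rose by 1.3 and Tgfbr1 fell by 0.65 (not called without CXD101 replicate 1, at -0.57), and Csf3r, the receptor for granulocyte colony-stimulating factor, was not called (0.24). Of 13 tested eicosanoid synthesis genes, 3 were higher and 1 lower under CXD101, with a median log2 fold change of 0.37. Lta4h, which makes leukotriene B4, and Cyp4f18, which degrades it, went from 97.3 and 96.9 FPKM to 210.2 and 211, and from 69.9 and 78.5 FPKM to 163 and 183 (1.11 and 1.21). Rnase2a, a ribonuclease of the eosinophil family, went from 34.1 and 50.9 FPKM to 8.6 and 3.94 (log2 fold change -2.63, standard error 0.3, limma adjusted p = 3.26e-04). Of 6 tested eosinophil markers, 1 was higher and 1 lower under CXD101, with a median log2 fold change of 0.27, and of 5 tested basophil and mast cell markers, 0 were higher and 0 lower under CXD101, with a median log2 fold change of -0.13. Of the Fc and inhibitory receptors, the number lower was 1 without CXD101 replicate 2. Of the eicosanoid synthesis genes, the number lower was 2 without CXD101 replicate 2. Of the eosinophil markers, the number higher was 0 without vehicle replicate 1 and 2 without vehicle replicate 2, and the number lower was 2 without CXD101 replicate 1. Of the basophil and mast cell markers, the number higher was 1 without vehicle replicate 2, and the number lower was 1 without vehicle replicate 1.

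Most markers of cells outside the myeloid lineage were low in all 4 libraries. All 8 erythroid markers that were found were under 1 FPKM, and the globin symbols were listed at 0. Of 15 markers of hepatocytes and liver tumors, 10 were at 0 in every library, among them Alb, Apoa1 and Ttr. Afp, an antigen of liver tumors, was at 2.03 and 2.02 FPKM with vehicle and 1.49 and 1.16 with CXD101 and was not called. Trf (transferrin) was high, at 161 and 155 FPKM with vehicle and 230.4 and 232 with CXD101 (0.55, not called), and made up nearly all of the summed level of this list. Of 2 tested B and plasma cell markers, 1 was higher and 0 lower under CXD101, against 11.8% and 9.74% of all genes, with a median log2 fold change of 0.13. Of the endothelial and fibroblast markers, Col1a1 was the 1 tested (from 2.08 and 2.08 FPKM to 4.54 and 3.71, 0.73), and Col1a2, Col3a1 and Dcn were at 0. Of the B and plasma cell markers, the number lower was 1 without vehicle replicate 1.

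**Figure D4:**
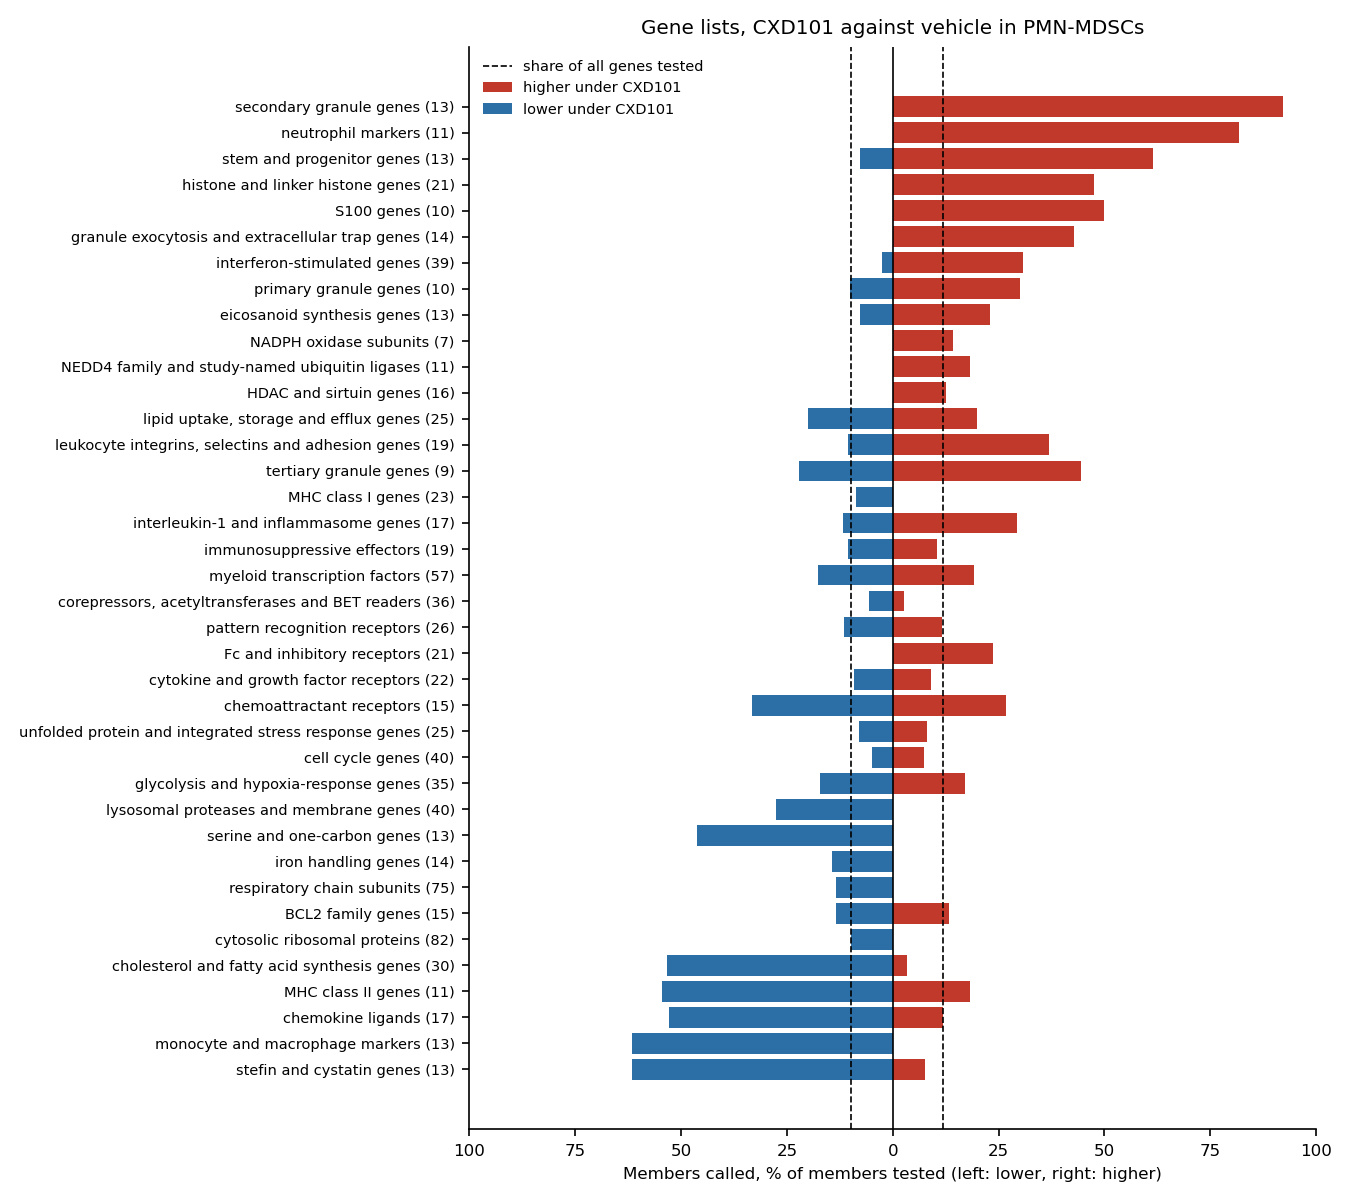
Members called higher (red, to the right) and lower (blue, to the left), as a percentage of the members tested, for each gene list with 7 or more tested members, whose number is in brackets. The lists are ordered by their median log2 fold change, and dashed lines mark the shares of all genes tested, 11.8% higher and 9.74% lower. Secondary granule genes and neutrophil markers reached furthest to the right, and stefins and macrophage markers furthest to the left.

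The ubiquitin ligases that the study had named in M-MDSCs were also measured here. Of 11 tested NEDD4 family and study-named ubiquitin ligases, 2 were higher and 0 lower under CXD101, against 11.8% and 9.74% of all genes, with a median log2 fold change of 0.2. Nedd4, a HECT-type ligase (chromosome 9, 72662346 to 72749852, plus strand), was at 5.5 and 5.53 FPKM with vehicle and 20.8 and 20.7 with CXD101 (log2 fold change 1.74, standard error 0.0857, limma adjusted p = 6.62e-06). The replicates of each group differed by little. Trim6, a tripartite motif ligase, went from 1.52 and 1.31 FPKM to 5.34 and 7.01 (log2 fold change 1.56, standard error 0.152, limma adjusted p = 1.62e-04). Trim32 was at 2.26 and 2.55 FPKM with vehicle and 3.23 and 2.62 with CXD101 and was not called (log2 fold change 0.2, limma adjusted p = 0.289).

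M-MDSCs have vehicle libraries of their own, so the response to CXD101 could be compared between the subsets. In M-MDSCs, 529 genes (4.92% of 10747) were higher and 329 (3.06%) lower under CXD101. Of 10396 genes tested in both subsets, 303 were higher in both, which is 28.9% of the 1048 higher in PMN-MDSCs and 65% of the 466 higher in M-MDSCs. Another 184 were lower in both, 17.9% of 1026 and 58.6% of 314, and 2 and 3 genes were called in opposite directions. In a direct test of the difference (limma interaction over 12 libraries), 852 of 11662 genes (7.31%) had a response that lay higher in the PMN subset and 768 (6.59%) one that lay lower. Of 13 secondary granule genes, 11 had a higher response in PMN-MDSCs. Ltf had a log2 fold change of 2.77 in PMN-MDSCs and 0.01 in M-MDSCs, a difference of 2.76 (limma interaction adjusted p = 1.22e-05). For Cybb the values were 1.12 and -0.38 (difference 1.5, limma interaction adjusted p = 2.92e-06) and for Zbp1 1.52 and -0.12 (1.65, limma interaction adjusted p = 3.16e-05). Slc2a3 rose by 1.86 in PMN-MDSCs and was at 0.06 in M-MDSCs (limma interaction adjusted p = 4.99e-05). The genes named in this comparison had been chosen for large changes in PMN-MDSCs, which favours a larger response there, so these differences are a description. Of 10 primary granule genes, 0 had a higher response in PMN-MDSCs and 2 a lower one. Of 6 eosinophil markers, 0 had a higher and 4 a lower one. Of 82 ribosomal protein genes, 8 had a lower response in PMN-MDSCs and 0 a higher one. No difference was called for Scd1 (-2.55 and -2.78), Anpep (-2.87 and -2.76) or Chd3 (2.04 and 1.98), with limma interaction adjusted p of 0.638, 0.781 and 0.811. Only 1 of 30 lipid synthesis genes responded lower and 1 higher in PMN-MDSCs.

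**Figure D5:**
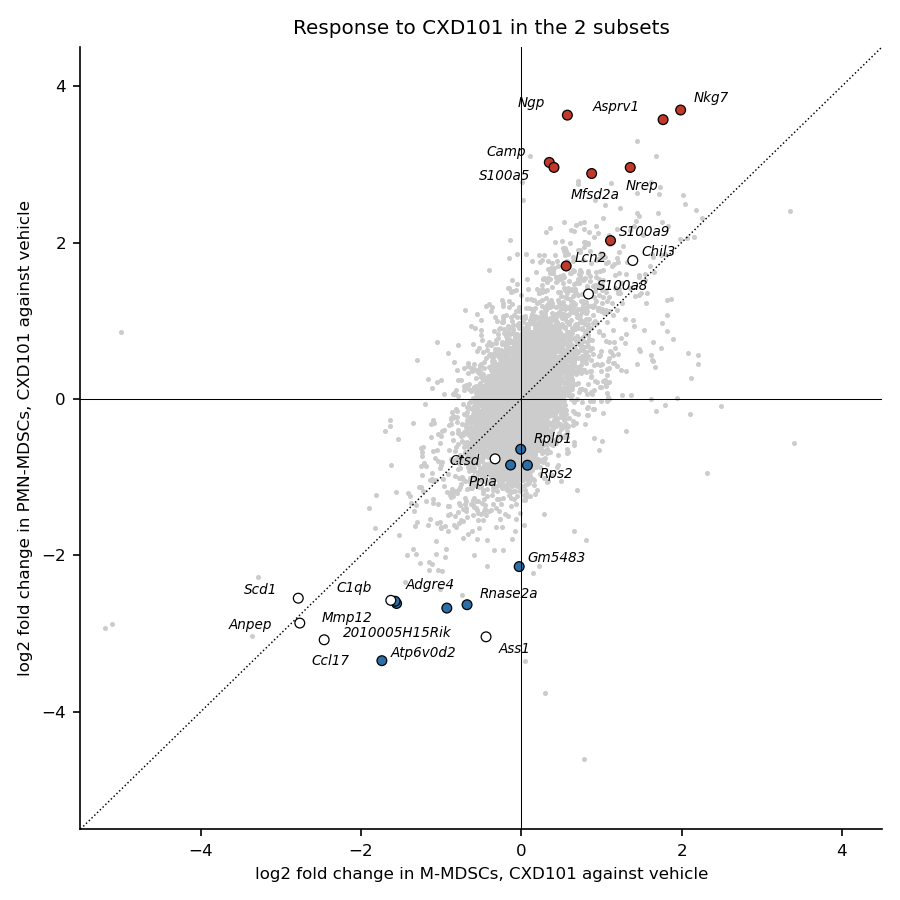
Log2 fold change of CXD101 against vehicle in M-MDSCs (horizontal) and in PMN-MDSCs (vertical). Grey points are all genes tested in both subsets, and the named points are genes with the largest changes in PMN-MDSCs, red or blue where the response was higher or lower in PMN-MDSCs by the interaction test and white where it was not called. Ngp, Camp and S100a5 lie far above the dotted line of equal response, while Scd1 and Anpep lie close to it.

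MS-275, a benzamide inhibitor of the same HDACs, was given at the same dose and schedule by the study's methods, which do not describe the PMN-MDSC libraries. Against the same vehicle libraries, MS-275 raised the level of 1528 genes (13.9%) and lowered that of 1587 (14.5%) in PMN-MDSCs. These comparisons share the vehicle libraries, so the inhibitors were contrasted directly, a single pair. Of 10956 genes, 46 (0.42%) were called above their CXD101 level in the MS-275 libraries and 38 (0.347%) below it. Of the genes described here with the largest changes, Atp6v0d2 and Gm5483 were called in this contrast. Atp6v0d2 was at 4.43 and 3.18 FPKM under MS-275 (difference -0.82, 95% interval -1.14 to -0.5, limma adjusted p = 0.0399), below both CXD101 libraries. Gm5483 was at 159 and 143 FPKM (difference -0.81, 95% interval -1.12 to -0.51, limma adjusted p = 0.0326). Among the list members named above, Cxcl3 (307 and 271 FPKM under MS-275), Ly6a (140.2 and 146), Adgrg1 (14.3 and 17.6) and Mmp8 (2592 and 2555) were higher under MS-275 than under CXD101, and Ccl2 (2.81 and 6.36) and Ccl7 (0.438 and 0.415) were lower. For S100a9 the difference was -0.04 (95% interval -0.34 to 0.27), for Lcn2 -0.12 (-0.3 to 0.05) and for Ccl17 -0.02 (-0.36 to 0.32), and none of these was called. Ngp was at 14556 and 14306 FPKM under MS-275, lower than under CXD101 by a log2 difference of -0.42 that passed limma's adjusted p (0.0462) but not the fold limit. This contrast depended on the settings, with 1 gene called in each direction without the filter on low FPKM, 2 in each without CXD101 replicate 2, and at most 11 and 13 when any replicate was left out.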

How the data were processed

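RNA-seq libraries (TruSeq stranded mRNA) had been made from sorted cells. The authors deposited 1 table of FPKM per library, which is already scaled to library size and transcript length. The submitters' processing notes name TopHat2 2.1.1, Bowtie2 2.2.8, SAMtools 0.1.18, Cuffdiff 2.2.1 and the build mm10. The annotation, the strand setting and the handling of multimapped reads are not given in the sources used here. The labels name another RNA kit (miRNeasy Micro) than the paper (Mini).

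Values were analysed as log2(FPKM + 1) with limma 3.58.1 in R 4.3.3 (lmFit, eBayes with an intensity trend) over the 6 PMN-MDSC libraries, whose 3 groups share 1 estimate of the spread. Genes with at least 1 FPKM in 2 of the 4 compared libraries were tested, and genes were called at an adjusted p under 0.05 and a fold change above 1.5. The interaction with M-MDSCs was fitted over 12 libraries. Low FPKM values gave whole reads only in part, so depth was a rough estimate and no count test was run. The script was tested on simulated data.

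The genes named are the 10 called genes with the largest log2 change in each direction (mean of at least 5 FPKM in the higher group, small RNAs left out), the 5 with the largest FPKM change in each direction, up to 4 called members of each list in each direction, and genes of the study and the gate. Members not called, and called members past those 4, are named with their values, the latter chosen after these were seen. The members, gene lists and promoter motif were chosen with earlier results of these data known. Some genes are not reported here. Alternatives were another pseudocount, filter, scaling, model and fold limit, a replicate block, and leaving out each replicate. Gene coordinates are from GENCODE (GRCm38) and promoters from RefSeq (GRCm38.p6).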

Additional observations from a re-analysis of the deposited data

Results flagged for a closer look

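Of 40 genes with the largest changes or named by the study, 23 were singled out because their response to CXD101 differed between PMN-MDSCs and M-MDSCs in the limma interaction test, with a fold difference above 1.5. Values are the log2 fold change in PMN-MDSCs minus that in M-MDSCs. The response was higher in PMN-MDSCs for Nkg7 (1.71), Ngp (3.05), Asprv1 (1.8), Sytl3 (3.04), Camp (2.67), S100a5 (2.55), Nrep (1.6), Bcl2l14 (2.41), and for Mfsd2a (2.0), S100a9 (0.91), Lcn2 (1.14), Nedd4 (0.87), Ly6c1 (1.36), Ly6c2 (1.01). It was lower in PMN-MDSCs for Atp6v0d2 (-1.61), 2010005H15Rik (-1.74), Rnase2a (-1.95), Mmp12 (-1.06), Adgre4 (-1.01), Rplp1 (-0.64), Gm5483 (-2.12), Ppia (-0.71), Rps2 (-0.92). The genes had been chosen for large changes in PMN-MDSCs, so these differences are a description. Sytl3 and Bcl2l14 did not pass the filter in the M-MDSC libraries. Nedd4 had a log2 fold change of 1.74 in PMN-MDSCs and 0.87 in M-MDSCs (limma interaction adjusted p = 0.00397). Groups of 2 libraries are too small to look for libraries that stand apart.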

How the results depend on the processing

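The call counts for CXD101 against vehicle, 1293 higher and 1067 lower, stayed within 1.5 times of these under all alternatives but one: with a fold change above 2 they were 561 and 291. The same limit took the interaction counts to 311 and 163. The direct contrast of MS-275 and CXD101 moved most. Its 46 higher and 38 lower genes became 1 and 1 without the filter, 16 and 12 without the intensity trend, 17 and 17 with a fold change above 2, and 2 to 11 and 2 to 13 when a replicate was left out, the fewest without CXD101 replicate 2. The cause was not tested. Over all tested genes the median of the log2 fold changes (-0.03) was 0.0026 without the filter, -0.06 at 5 FPKM or more (-0.0595), -0.0187 after median-of-ratios scaling, -0.0286 after quantile normalization, -0.0559 after rescaling without S100a8 and S100a9, and -0.0485 to -0.0297 with a replicate left out. Scaling therefore moved it by under 0.1. Leaving aside the fold limit of 2, of 2641 values for 191 named genes, 2600 kept their call, 38 lost it and 3 reversed. S100a8 reversed to -0.38 under quantile normalization, which sets the highest values of each library equal by construction. Itgam, close to 0, reversed to -0.0035 after rescaling without S100a8 and S100a9 and ranged from -0.0384 to 0.0792 with a replicate left out (lowest without vehicle replicate 1, highest without vehicle replicate 2). Elane lost its call at 1.13 without CXD101 replicate 1. Of 1372 counts of list members, again without that limit, 68 moved by more than 1.5 times. Deviations of same-numbered vehicle and CXD101 libraries had a correlation of 0.021, which cannot show whether the replicate numbers pair samples. A fit with the replicate number as a block gave 1297 and 1069 calls. Between same-numbered PMN-MDSC and M-MDSC libraries the correlation was -0.169 under vehicle and -0.141 under CXD101. The interaction test treated the libraries of both subsets as independent, and whether they share mice was not tested. No counts were used, so the precision rests on 2 libraries a group, and the rough estimate of depth was not turned into intervals.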

Other observations

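Of 22 small RNA symbols tested (microRNA and small nucleolar RNA genes), 4 were lower and 0 higher under CXD101, against 9.74% and 11.8% of all genes. Their FPKM values can differ widely between replicates, as for Mir6363, with 81.6 and 55.3 under vehicle and 84.6 and 0 under CXD101, and poly(A) libraries are not made to measure them.

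Eno1b, a close copy of the glycolytic gene Eno1, was listed at 291 and 1.38 FPKM with vehicle and 292 and 174 with CXD101, so its log2 fold change of 3.1 came from 1 vehicle library and was not called (limma adjusted p = 0.183).

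The palindrome CACGTG, bound by E-box factors such as MITF and TFEB, was in at least 1 promoter window of 7 of 28 lysosomal genes (25%), against 10.4% of all genes tested with a promoter, 12.3% of those that were lower and 8.04% of those that were higher.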
